A study of Mus musculus with 3 samples.

Results

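The genes described here are those of the amyloid precursor family and of the secretases that cut its proteins: App, Aplp1, Aplp2, Bace1, Psen2, Aph1a, Ncstn, Psenen and Adam10. They were chosen by gene symbol, and all 9 were found among 27480 genes of the deposited transcript table, 18221 of them protein-coding. Poly-A RNA came from cultured cortical neurons of Swiss-Webster mice, an outbred stock, taken at embryonic day 16, of wild-type genotype and given no treatment. The 3 libraries form 1 group, so the comparisons are between genes within the same libraries. Whether each library is a culture of its own is not stated, so p-values and SDs refer to how these libraries vary, possibly for technical reasons alone. Each gene's level is the TPM, a length-scaled share of the deposited signal, of its longest protein-coding transcript row, given as mean ± SD over the libraries (n = 3).

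APP and its relatives APLP1 and APLP2 are membrane proteins with a large outer part and a short cytoplasmic tail, abundant in neurons and at synapses. As background, the alpha-secretase ADAM10 or the beta-secretase BACE1 first cuts off the outer part. Gamma-secretase, a complex of a presenilin, nicastrin (Ncstn), an APH-1 protein and presenilin enhancer 2 (Psenen), then cuts the remaining stub within the membrane. Cuts of APP by BACE1 and gamma-secretase release amyloid-beta, the peptide that deposits in Alzheimer disease. The same enzymes cut many other proteins of neurons.

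The precursor genes were far above the enzyme genes. App was the highest of the members, at 398, 448 and 416 TPM in libraries 1, 2 and 3, a mean of 420.8 ± 25.3 TPM. That was rank 30 among 18221 protein-coding genes, and 183905 reads lay behind it. Aplp1 stood at 169, 173 and 154 TPM, a mean of 165 ± 9.49 TPM at rank 120. Aplp2 stood at 123, 140.05 and 134 TPM, a mean of 132 ± 8.75 TPM at rank 179. The levels of App did not overlap those of its relatives in any library, and those of Aplp1 lay above those of Aplp2. App made up 58.6% ± 0.703 of the summed level of the precursor genes.

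Within libraries App exceeded Aplp1 by 1.34 ± 0.10 on the log2(TPM + 1) scale and Aplp2 by 1.66 ± 0.03, both in 3 of 3 libraries. Aplp1 exceeded Aplp2 by 0.32 ± 0.13, in 3 of 3 libraries. An exact permutation test (two-sided, flipping signs over libraries) gave p = 0.25 for each of these differences, the smallest value 3 libraries allow, so size and direction are all they can show. The Benjamini-Hochberg adjusted value over the 10 pairs of family and enzyme genes was also 0.25.

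**Figure D1:**
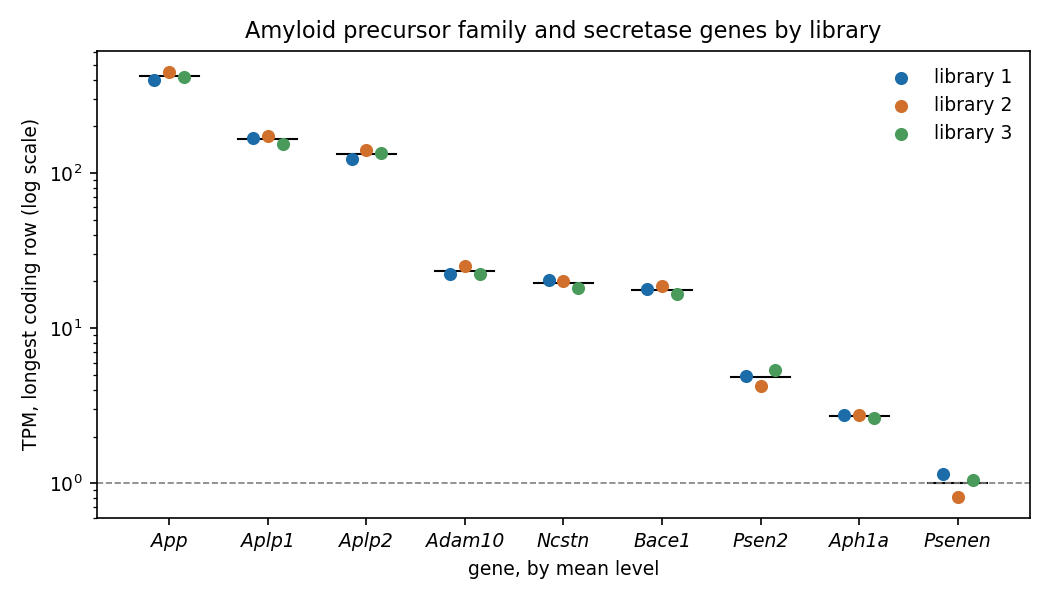
TPM of the longest coding row (log axis) for each of the 9 genes in libraries 1 to 3 (points) with the mean (bars); the dashed line marks 1 TPM. App lies at 398 to 448 TPM and the other precursor genes above 120 TPM, Adam10, Ncstn and Bace1 between 16 and 26 TPM, and Psen2, Aph1a and Psenen below 6 TPM.

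The App row (mm10 chr16:84954440-85173707, minus strand, App-201) is the model of the form without the protease-inhibitor domain, with 2085 coding bases. It is the member's 1 row in the table, and the forms of App with that domain were not analysed here. The stretch of its coding sequence that encodes amyloid-beta is shown because it sets App apart from its relatives. It has 42 codons, lies in exons 14 and 15 of 16 on the minus strand between chr16:84962794-84965720, and carries capitals at the first and last pair of codons. A search of the translated reading frames found this stretch in App and not in Aplp1 or Aplp2.
App amyloid-beta codons: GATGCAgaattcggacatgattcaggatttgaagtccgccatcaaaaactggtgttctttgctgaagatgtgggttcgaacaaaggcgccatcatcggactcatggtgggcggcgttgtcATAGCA

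What the family shares is the tail motif that adaptor proteins of internalization bind. Its 6 codons, in capitals, were found in all 3 genes, in the last exon of each, and are printed with 30 bases before and 12 after them, from the GENCODE M21 transcripts (mm10, minus strand; chr16:84955346-84955405, chr7:30435305-30435364 and chr9:31150886-31150945).
App: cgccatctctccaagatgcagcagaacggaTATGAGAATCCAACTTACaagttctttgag
Aplp1: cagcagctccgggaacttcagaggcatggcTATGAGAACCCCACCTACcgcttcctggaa
Aplp2: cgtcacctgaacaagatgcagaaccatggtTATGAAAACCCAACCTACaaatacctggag
Over these 60 bases App matched Aplp2 at 43 and Aplp1 at 36, and Aplp1 matched Aplp2 at 39. Within the 18 bases of the motif App matched each relative at 15. No 50-base word of App, Aplp1 or Aplp2 occurs in a transcript of a gene at another place, so words of that length tell these genes apart; the read length is not given in the sources used here.

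Aplp2 is the family member whose rows differ by named exons. The row Aplp2-201 holds an exon of 168 bases (chr9:31167561-31167728, minus strand) that encodes a Kunitz-type protease-inhibitor domain, and the row Aplp2-202 lacks it but holds another of 36 bases (chr9:31156190-31156225). In the first sequence the 19 codons that match the Kunitz signature pattern are in capitals.
Aplp2 Kunitz exon: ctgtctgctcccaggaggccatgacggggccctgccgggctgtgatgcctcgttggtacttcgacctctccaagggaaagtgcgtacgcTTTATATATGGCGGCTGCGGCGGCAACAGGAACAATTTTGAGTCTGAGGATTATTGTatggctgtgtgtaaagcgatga
Aplp2 short exon: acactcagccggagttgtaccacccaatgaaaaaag
The row with the Kunitz exon had 539, 507 and 518 more reads than the other row in libraries 1, 2 and 3. Spread over the 168 bases, these stood for 62.6, 69.8 and 67.5 TPM, which was 49.7% ± 0.568 of the level of the row without the exon. The share was close to 50.3%, 49.2% and 49.7% in the single libraries. Reads that also touch a neighbouring exon can belong to both rows, and reads within the short exon would be subtracted, so the share can be below the exon's true use.

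For scale, 34 exons of other genes, within 20 bases of its length, also distinguished a pair of rows and had a median share of 36.0%, with the 10th percentile at 3.05% and the 90th at 127%. The Aplp2 exon lay above that median and inside that range. Reads beyond those of the row without it were present in all 3 libraries.

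**Figure D2:**
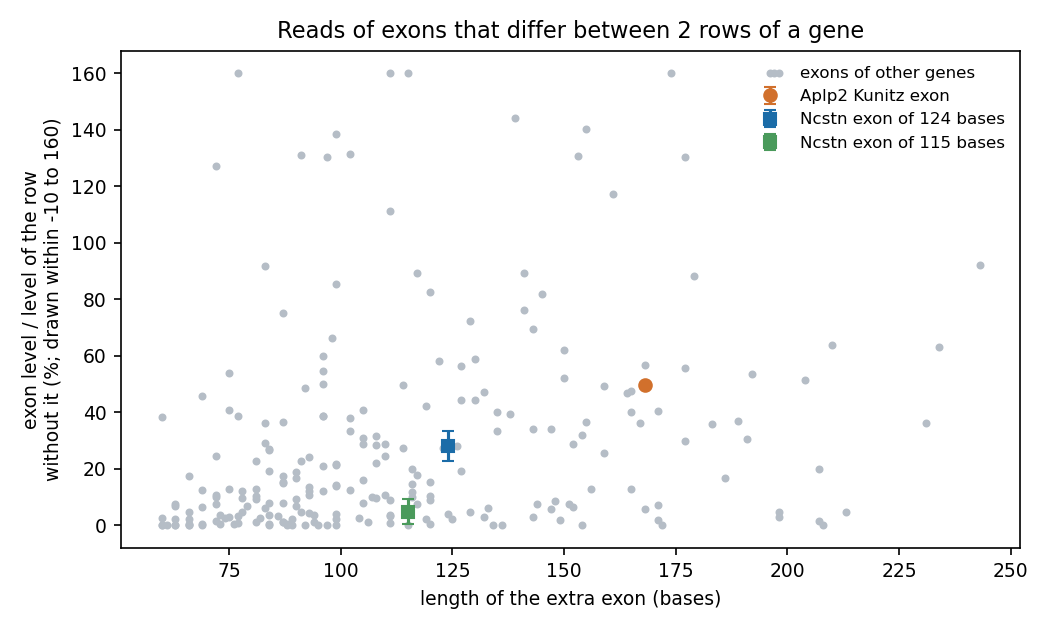
Level of an exon that 1 row of a gene has and another lacks, as a percentage of the level of the row without it (y axis), against the exon's length in bases (x axis); grey points are exons of other genes, coloured points the means of the Aplp2 and Ncstn exons with SD over 3 libraries. The Aplp2 exon is at 49.7%, the Ncstn exon of 124 bases at 28.1% and the Ncstn exon of 115 bases at 4.75%.

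The genes of the enzymes that make the first cut were close to each other. Adam10 (chr9:70678997-70780229, plus strand), the main alpha-secretase of neurons, stood at 22.4, 25.03 and 22.3 TPM, a mean of 23.2 ± 1.56 TPM. Bace1 (chr9:45838580-45864399, plus strand), the beta-secretase, stood at 17.8, 18.7 and 16.6 TPM, a mean of 17.7 ± 1.06 TPM. Adam10 was the higher in 3 of 3 libraries, by 0.37 ± 0.05 on the log2(TPM + 1) scale (exact sign-flip permutation p = 0.25). The order rests on the row: with each gene's highest row in place of the longest coding one the difference was -0.13 ± 0.08. App stood at 18.1 ± 0.468 times the TPM of Adam10 and 23.8 ± 1.35 times that of Bace1.

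The codons of the active sites are shown to identify the enzymes, with the catalytic motif in capitals. The stretch printed for the zinc-binding motif of ADAM10, flanks included, runs from exon 9 into exon 10 of 16. The aspartate motifs of BACE1 lie in exons 2 and 6 of 9 (chr9:45852888-45852926 and chr9:45858409-45858447).
Adam10 zinc site: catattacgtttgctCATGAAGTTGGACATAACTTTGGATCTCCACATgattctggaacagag
Bace1 first aspartate: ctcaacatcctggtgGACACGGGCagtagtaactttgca
Bace1 second aspartate: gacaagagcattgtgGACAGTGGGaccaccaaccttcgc
The Bace1 site in exon 6 lies in a segment of 102 bases (chr9:45858400-45858501) that the longest coding row, Bace1-201, has and the coding row Bace1-202 lacks. Bace1-201 also reaches 1915 bases further at its end.

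Bace1-202 stood at 23.0, 24.0 and 21.5 TPM, above Bace1-201 in each library. The reads that Bace1-201 had in addition stood for 7.42, 8.11 and 6.87 TPM over the 2017 extra bases, or 32.6% ± 0.955 of the level of Bace1-202. The shares of the internal segment and of the longer end cannot be told apart from these rows. Of the exonic bases of Bace1, 975 lie opposite exons of Rnf214 on the other strand, and the counting by strand is not given in the sources used here. Of the 6 Bace1 rows the lowest stood at 15.1 TPM. The highest was Bace1-203 at 25.5 ± 0.293 TPM, a row of 365 bases annotated as subject to nonsense-mediated decay.

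For Adam10 the added part was read as much as the remainder. Adam10-201 has 1873 bases more than Adam10-202, nearly all of them in the last 1847 bases of the gene. They stood at 22.5, 28.4 and 23.5 TPM, against 22.3, 22.7 and 21.4 TPM for Adam10-202. Library 2 was the highest in both. The retained-intron row Adam10-204 was the lowest of the 4 rows at 9.56 ± 1.12 TPM.

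The gamma-secretase genes spread over a wide range although their proteins join in 1 complex. Ncstn (chr1:172066013-172082795, minus strand), which holds the substrate, was the highest, at 20.5, 20.2 and 18.1 TPM, a mean of 19.6 ± 1.30 TPM. Psen2 (chr1:180227004-180253138, minus strand), a presenilin and thus a catalytic subunit, stood at 4.95, 4.26 and 5.35 TPM, a mean of 4.85 ± 0.553 TPM. Library 2 was the lowest for Psen2 and the highest for App. Aph1a (chr3:95893969-95898288, plus strand), a scaffold subunit, stood at 2.74, 2.75 and 2.65 TPM, a mean of 2.71 ± 0.0565 TPM.

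Psenen (chr7:30561868-30563184, minus strand), the smallest subunit, was the lowest, at 1.14, 0.821 and 1.05 TPM, a mean of 1.004 ± 0.166 TPM. Its values rest on 38, 23 and 31 reads. The 95% exact Poisson intervals, which cover counting error only because copies from PCR are not marked, were 0.810 to 1.57, 0.520 to 1.23 and 0.712 to 1.49 TPM. They overlap one another and include 1 TPM. A difference between libraries was not tested for Psenen.

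Within libraries Ncstn exceeded Psen2 by 1.82 ± 0.21, Aph1a by 2.47 ± 0.07 and Psenen by 3.36 ± 0.16 on the log2(TPM + 1) scale. Psen2 exceeded Aph1a by 0.65 ± 0.16 and Psenen by 1.55 ± 0.08, and Aph1a exceeded Psenen by 0.89 ± 0.13. Each difference had 1 direction in 3 of 3 libraries, with exact sign-flip permutation p = 0.25. As a ratio of TPM, Ncstn stood at 19.9 ± 4.06 times Psenen.

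The complex can hold another APH-1 protein in place of that of Aph1a, whose genes belong to the list of other secretase genes. Aph1b stood at 6.11 ± 0.498 TPM, above Aph1a, and its near-identical copy Aph1c at 0.617 ± 0.00957 TPM. Because Aph1b and Aph1c share sequence, both levels are uncertain.

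Aph1a and Psenen also share sequence with other places in the genome, and their levels are uncertain for that reason. Of the 50-base words of the Aph1a transcript 66.3% occur in no gene elsewhere, and of those of Psenen 61.0%. The other words of Psenen lie mostly in the processed pseudogene Gm12396, which holds 39.0% of them and is listed at 0 in all 3 libraries. The pseudogene Gm15429 holds 24.9% of the words of Aph1a and stood at 0.318, 0.174 and 0.137 TPM. The protein-coding gene Jagn1 holds 8.81% of them and stood at 21.5, 17.2 and 15.3 TPM. All words of Ncstn and Psen2 were found nowhere else, and of those of Aph1b, which lay above Psen2 in level, 80.3%. Gapdh, a glycolytic enzyme gene that every cell uses, had 17.5% such words and stood at 0.993 ± 0.277 TPM in these libraries. It was added after its value was seen, and a relation of such words to level over all genes was not tested. How the authors treated reads that map to several places is not given, and the part of shared sequence in the levels of Aph1a and Psenen was not tested.

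**Figure D3:**
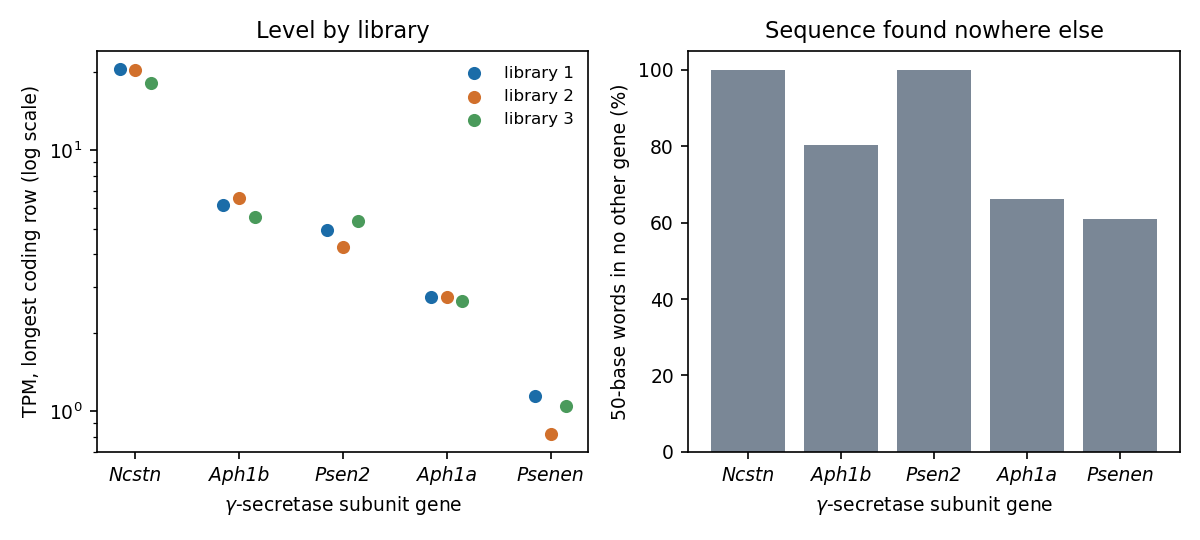
Left, TPM of the longest coding row (log axis) of 5 gamma-secretase subunit genes in libraries 1 to 3; right, percentage of the 50-base words of that transcript found in no gene elsewhere (bars). Ncstn and Psen2 have 100% such words, Aph1b has 80.3%, Aph1a 66.3% and Psenen 61.0%; Aph1b lies above Psen2 in level.

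The site of the catalytic aspartate that presenilins carry in their later part is printed for Psen2, with the 4 codons of the motif in capitals. The printed stretch, flanks included, runs from exon 9 into exon 10 of 11.
Psen2 second aspartate: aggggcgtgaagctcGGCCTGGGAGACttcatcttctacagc
Of the 12 Psen2 rows, those that differ in their first exon could not be separated: Psen2-201, Psen2-204 and Psen2-205 each had 512, 372 and 494 reads. The rows of Psen2 ran from 2.51 to 5.695 TPM.

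Ncstn had a coding row and rows of nonsense-mediated decay forms that share nearly all their reads. The coding row Ncstn-201 had 3046, 2535 and 2401 reads, and Ncstn-206 had 3010, 2497 and 2376. The row Ncstn-204, annotated as subject to nonsense-mediated decay, holds an extra exon of 115 bases (chr1:172075626-172075740), for which 1, 4 and 9 reads remained, or 0.170, 0.805 and 1.71 TPM. That was 4.75% ± 4.37 of the level of the coding row. The row Ncstn-206, of the same class, lacks a coding exon of 124 bases (chr1:172075405-172075528). That exon had 36, 38 and 25 reads of its own, or 5.66, 7.09 and 4.41 TPM, 28.1% ± 5.39 of the level of Ncstn-206. Reads that also touch a neighbouring exon can belong to both rows, so either share can be below the exon's true use. Other genes had a median share of 20.96% for 66 exons of a similar length to the coding exon and of 21.2% for 81 of a similar length to the extra one. The coding exon therefore lay above and the extra exon below the median of exons of like length. Ncstn shares 195 exonic bases with Copa on the other strand, and Copa reached 44.97 TPM.

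In order of level the members were App, Aplp1, Aplp2, Adam10, Ncstn, Bace1, Psen2, Aph1a and Psenen. The order was set by the means of these libraries, so the signs of the 8 mean differences between neighbours follow from it. The exact sign-flip permutation gave p = 0.25 for each, the smallest value 3 libraries allow, and is no support for the order. The smallest differences were those of Ncstn over Bace1, 0.14 ± 0.05, and of Adam10 over Ncstn, 0.23 ± 0.10, on the log2(TPM + 1) scale. The range of Ncstn over libraries, 18.1 to 20.5 TPM, overlapped that of Bace1, 16.6 to 18.7 TPM. Within libraries Ncstn was the higher in 3 of 3, by 0.19, 0.10 and 0.12. With the highest rows the sign of this difference turned, to -0.26 ± 0.06.

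At a mean of at least 1 TPM all 9 members were detected, where 61.5% of protein-coding genes were. Psenen sat at the limit, and 8 members were detected in every library. The share of all protein-coding genes detected in every library was not computed. At least 10 TPM was reached by 6 members and by 26.4% of protein-coding genes, and at least 100 TPM by 3 members, the precursor genes, and by 1.56% of protein-coding genes. The coefficient of variation between libraries was 5.75% to 6.73% for App, Aplp1, Aplp2, Adam10, Ncstn and Bace1. It was 11.4% for Psen2, 16.5% for Psenen and 2.09% for Aph1a, against a median of 7.22% for 4815 protein-coding genes at 10 TPM or more and of 7.89% for 11214 at 1 TPM or more.

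The genes whose levels over the 3 libraries were nearest to those of App, by Euclidean distance on the log2(TPM + 1) scale, were Syp at 0.15, Nsg2 at 0.18 and Stmn3 at 0.19. Syp, of synaptic vesicles, stood at 396 ± 25.6 TPM, Nsg2 at 411 ± 15.6 TPM and Stmn3 at 424 ± 13.6 TPM. The nearest gene was Pkia for Aplp1, Atp6v1d for Aplp2, Phf24 for Adam10, Ndufc1 for Ncstn, Ube2z for Bace1, Anapc10 for Psen2, Nxn for Aph1a and Slc41a3 for Psenen, at distances of 0.02 to 0.06. Over 3 libraries of 1 group this likeness is one of level.

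Of 9 genes of the list of other secretases and sheddases 6 were detected (66.7%) and 3 stood at 10 TPM or more (33.3%), near the 61.5% and 26.4% of all protein-coding genes. The 3 were Lgmn, the asparagine-cutting delta-secretase, at 40.9 ± 2.005 TPM, Mmp24, the membrane metalloprotease named eta-secretase, at 20.1 ± 1.68 TPM and the metalloprotease gene Adam9 at 15.6 ± 0.4697 TPM. Adam17, an inducible alpha-secretase, stood at 3.44 ± 0.182 TPM, or 3.26, 3.45 and 3.62 TPM, below Adam10 in each library. Bace2, the relative of Bace1, stood at 1.86 ± 0.2903 TPM. Tmprss2 was at 0.0621 ± 0.0212 TPM, and Mep1b was listed at 0.

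The list of genes around ADAM10 holds tetraspanins, of which some bring it to the cell surface, convertases, which remove its prodomain, and tissue inhibitors of metalloproteases, of which not all inhibit ADAM10. Of its 12 genes 10 were detected (83.3%) and 3 stood at 10 TPM or more (25%), the latter near the 26.4% of all protein-coding genes. They were the metalloprotease inhibitor gene Timp2 at 82.5 ± 6.42 TPM, the tetraspanin gene Tspan5 at 34.5 ± 6.30 TPM and the inhibitor gene Timp3 at 11.9 ± 1.13 TPM. Tspan14, another partner, stood at 9.97 ± 1.44 TPM, and Tspan10 was listed at 0.

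Of 14 partners and modulators of BACE1 and gamma-secretase 13 were detected (92.9%) and 9 stood at 10 TPM or more (64.3%). Among all protein-coding genes the shares were 61.5% and 26.4%. Rtn3 and Rtn4, reticulons of the endoplasmic reticulum that bind BACE1, stood at 259.9 ± 27.4 and 187 ± 23.8 TPM. Bsg stood at 186 ± 8.12 TPM. With their highest rows Rtn3 reached 442, Rtn4 312 and Bsg 296 TPM. Ubqln1, which binds presenilins, stood at 43.2 ± 2.05 TPM. Ifitm3, which binds gamma-secretase, was the lowest at 0.677 ± 0.136 TPM.

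Of 24 adaptors and sorting factors of APP 23 were detected (95.8%) and 16 stood at 10 TPM or more (66.7%). Among all protein-coding genes the shares were 61.5% and 26.4%. Itm2b, whose product binds APP, stood at 184 ± 26.7 TPM and Clstn1, which links cargo to kinesin, at 143 ± 12.6 TPM. The retromer gene Vps35 stood at 102 ± 3.23 TPM and Itm2c at 77.3 ± 3.48 TPM. The relative Itm2a was the lowest at 0.126 ± 0.173 TPM, most of it in library 1.

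Of 14 genes for amyloid-beta degradation and carriage 11 were detected (78.6%) and 6 stood at 10 TPM or more (42.9%). Among all protein-coding genes the shares were 61.5% and 26.4%. Cst3, a protease inhibitor, stood at 567, 516 and 780 TPM, a mean of 621 ± 139.8 TPM, and the lipid carrier gene Apoe at 365, 344 and 550 TPM, a mean of 419.5 ± 113 TPM. With their highest rows they reached 977 and 1024 TPM. Both were the highest in library 3, as were 5 of the 6 astrocyte markers, whose summed level ran from 367 to 455 TPM; their part in these levels was not tested. The lysosomal protease gene Ctsd stood at 93.5 ± 7.14 TPM and the chaperone gene Clu at 69.7 ± 12.02 TPM. Mmp2 was the lowest at 0.0751 ± 0.00267 TPM.

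Of 24 other substrates of the secretases 22 were detected (91.7%) and 14 stood at 10 TPM or more (58.3%). Among all protein-coding genes the shares were 61.5% and 26.4%. The prion protein gene Prnp, which ADAM10 sheds, stood at 172 ± 4.64 TPM and the adhesion gene Chl1, a substrate of BACE1, at 84.6 ± 13.5 TPM. Sdc3, a syndecan, stood at 71.1 ± 3.97 TPM and the adhesion gene Cadm1 at 65.8 ± 5.57 TPM. The neurotrophin receptor gene Ngfr was the lowest at 0.255 ± 0.0305 TPM. The 6 lists were drawn up around APP and the secretases and are no sample of the genome. Over all of them 85 of 97 genes were detected (87.6%), against 61.5% of protein-coding genes. The medians of log2(mean TPM + 1) were 4.36 for the members, 3.70 for the 97 genes and 1.94 for all protein-coding genes.

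**Figure D4:**
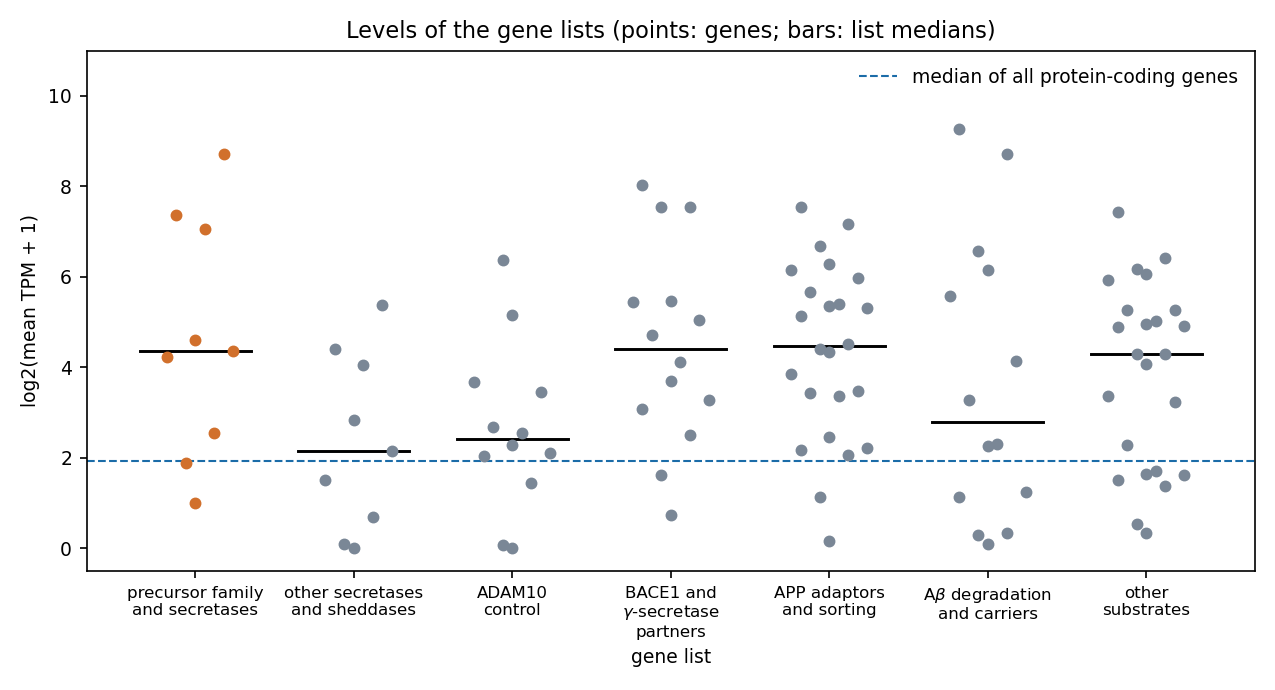
log2(mean TPM + 1) of each gene (points) in the precursor and secretase genes and in the 6 pathway lists, with list medians (bars) and the median of all protein-coding genes (dashed line, 1.94). App, at a mean of 420.8 TPM, lies above all genes drawn except Cst3, and Apoe, at 419.5 TPM, lies just under it.

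The label of cortical neurons was checked against markers. All 8 neuronal markers stood above 10 TPM, with a summed level of 1670.2 to 1928 TPM, and so did all 6 astrocyte markers. Of the oligodendrocyte lineage 5 of 6 were detected, with a sum of 39.6 to 59.4 TPM and Mog at 0.0286 TPM. Microglial markers summed to 1.19 to 2.26 TPM, with Tmem119 listed at 0, and endothelial ones to 0.570 to 0.880 TPM, with Cldn5 listed at 0. The libraries thus held RNA of astrocytes beside that of neurons, and the member levels are of the mixture. In such bulk RNA fewer cells of a type and less RNA per cell cannot be told apart. Taking for each gene its row with the most reads, the libraries held 33834132, 29881197 and 29443785 reads.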

How the data were processed

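RNA was sequenced in 3 libraries of 1 group. TPM per transcript were computed and deposited by the authors, in 84660 rows. Trimmomatic, TopHat, Bowtie and HTSeq and the build mm10 are named in the submitters' processing notes, with no version, role or order, and the annotation is GENCODE, per the name of the deposited table. For strand setting, multi-mapping reads and filters, the steps were not given in the sources used here. Rows were matched by transcript ID, without version, to GENCODE M21 on the same build: 83017 matched, of which 47 that lay elsewhere or on the other strand were left out, and 1643 did not match. Coordinates are those of the deposited rows, from base 1, except exons and sequences, which are from M21.

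A gene's value is its longest protein-coding row; rows of a gene share reads and were never summed. Multiplied by exonic length, TPM came out as whole reads (tolerance 0.02) in 99.9% of the rows above 0 used for this, which gave reads per row and was tested on simulated data (74441 rows, 100% recovered in each library). Between library pairs the chi-square per degree of freedom over genes was 13.1 to 19.5, above sampling noise, so the libraries were kept apart. Exon levels are differences of reads between rows, per extra base, for pairs with at least 500 reads in the shorter row. Differences between genes were taken within libraries on log2(TPM + 1) and tested with exact two-sided sign-flip permutations. Detection is a mean of 1 TPM, with 0.5 and 5 TPM as alternatives; others were the highest row, the longest row by coding length, a pseudocount of 0.1, scaling to nuclear protein-coding genes and leaving out each library. A search of 50-base words of the longest transcript over all M21 transcripts, both strands, left out genes that overlap the member. Named genes are the members, all other secretases, and the 4 highest and the lowest of each other list, with the nearest genes by level; Gapdh and the pseudogenes were added after their values were seen. A gene of the list of other secretases is not reported here and was left out of its counts. Members and lists were chosen with earlier results of these data known. Python 3.11.15, pandas 2.3.3, SciPy 1.17.1 and Biopython 1.88 were used.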

Additional observations from a re-analysis of the deposited data

How the results depend on the processing

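Of 84 alternative values of the 14 distinct pair differences, all but 2 kept their direction. Most of them could not have turned. Each pair had 1 direction in 3 of 3 libraries, so leaving out a library or changing the pseudocount cannot reverse it. The longest row by coding length changed the value of Aph1a alone among the members. The count is therefore no measure of robustness, and the highest row was the alternative that could turn signs broadly. With the highest row in place of the longest coding one, Ncstn minus Bace1 turned to -0.26 and Adam10 minus Bace1 to -0.13 on the log2(TPM + 1) scale; the cause was not tested. The same choice moved the level of Bace1 to 25.5, Ncstn to 21.2, Psen2 to 5.70 and Aph1a to 3.22 TPM. The longest row by coding length gave the same 3.22 TPM for Aph1a. For Bace1 the highest row is a nonsense-mediated decay form of 365 bases. For Ncstn it is a retained-intron row of 794 bases and for Psen2 a processed transcript of 538 bases. The values of these 3 genes are thus levels of models shorter than the coding row. Scaling to nuclear protein-coding genes multiplies every gene by a mean of 4.75, a log2 shift of 2.23 to 2.28, and gave 1998 TPM for App, 784 for Aplp1, 628 for Aplp2, 110.2 for Adam10, 93.0 for Ncstn, 84.2 for Bace1, 23.1 for Psen2, 12.9 for Aph1a and 4.77 for Psenen, so levels are relative to the deposited sum. Leaving out any library moved no member's level beyond its SD, but 8 members, all except Psenen, were detected without library 1 and without library 3, where Psenen stood at 0.934 and 0.983 TPM; without library 2 it stood at 1.096 TPM and all 9 were detected. At a limit of 5 TPM 6 members were detected, as many as at 10 TPM, which 26.4% of protein-coding genes reached. The share of all protein-coding genes at 5 TPM or without a library was not computed, so these counts have no background beside them. With 2 libraries no permutation p below 0.5 is possible. Depth limits the statements on Psenen, which rests on 92 reads in all.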

Other observations

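The members' promoters differed in base composition. RefSeq promoters (GRCm38.p6) were found for 8 of the 9 genes, with 10 start sites in all, and the 250 bases before each start were read. They held 44.8% to 74% G and C, against a median of 55.6%, the share of a Psenen start site, over 21263 promoters of protein-coding genes. Adam10 had the highest share, 74%, and App had 70.8%. A start site of Psen2 had the lowest share, 44.8%, and the other start site of Psen2 had 62.8%. The GC box GGGCGG was found on either strand in 6 of the 10 promoters and in 42.6% of all promoters. The 6 were those of App, Aplp1, Aplp2, Adam10 and Aph1a and 1 of the Psen2 promoters; it was not found before the starts of Ncstn and Psenen. The TATA motif TATAAA was found on either strand in none of the 10 promoters and in 11.6% of all promoters. These matches describe letters in the window read and no binding.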
